A study of Mus musculus with 9 samples.

Results

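The cochlear connexins described here are the 6 genes Gja1, Gjb1, Gjb2, Gjb6, Gjc1 and Gjc3, chosen by symbol. All 6 were among the 25579 symbols of the deposited table of homozygous and treated libraries, and 3 of them (Gja1, Gjb2 and Gjc3) were among the 1410 symbols of the smaller deposited table of WT and homozygous libraries. RNA was taken at postnatal day 28 from the cochlear membranous labyrinth of mice, the fluid-filled soft tissue within the bone, and sequenced as stranded total RNA. There were 3 libraries in each of 3 groups, named in the labels as biological replicates: Mpzl2 WT, the homozygous mutant hMPZL2Q74X/Q74X, which carries a humanized MPZL2 with a nonsense variant on both alleles, and the same homozygous genotype given AAV-ie-ABE8eWQ-SpRY:sgRNA3, a viral vector for an adenine base editor with its guide. The treated mice had been injected at postnatal day 2 by way of the round window membrane. No homozygous group with a sham injection or a vector without editor was analysed here, so surgery, vector and editing cannot be told apart. The labels used here give neither strain nor sex, nor whether animals were pooled for a library. The submitters' design text names pathways behind the tissue damage as the question.

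Connexins are membrane proteins that assemble into ring-shaped hemichannels. Hemichannels of neighbouring cells dock to form gap junctions, which pass ions, metabolites and second messengers. In the cochlea, Gjb2 (Cx26) and Gjb6 (Cx30) form mixed channels in an epithelial network of supporting cells and in a connective tissue network of spiral ligament fibrocytes and strial basal cells. Variants of GJB2 are a leading cause of inherited deafness. Gjc3 (Cx29) and Gjb1 (Cx32) are connexins of myelinating glia, Gja1 (Cx43) is the main connexin of astrocytes, fibroblasts and bone cells, and Gjc1 (Cx45) is known from vascular smooth muscle and neurons.

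Promoter sequences are shown for Gjb2 and Gjb6, which lie next to each other on chromosome 14 with 0 annotated genes between them and had similar profiles over the libraries, and for Gjc3, the connexin that passed the test in both comparisons. RefSeq's table, in build GRCm38.p6, held 8 sequences for 5 of the 6 genes, each from 250 bases before to 50 bases after an annotated start. The study's own build was GRCm39, so these coordinates belong to the older build. Capitals mark matches, on either strand, to the 5 words GGGCGG (the GC box core), TTAAAA (an AT-rich word), TATAAA (the TATA box), ACAAAG (a word of SOX sites) and TGAGTCA (the AP-1 site), which were chosen after the sequences had been seen. The Gjb2 window is chr14:57104653-57104952, the Gjb6 window chr14:57133562-57133861 and the Gjc3 window chr5:137963049-137963348, all 3 on the minus strand.
Gjb2: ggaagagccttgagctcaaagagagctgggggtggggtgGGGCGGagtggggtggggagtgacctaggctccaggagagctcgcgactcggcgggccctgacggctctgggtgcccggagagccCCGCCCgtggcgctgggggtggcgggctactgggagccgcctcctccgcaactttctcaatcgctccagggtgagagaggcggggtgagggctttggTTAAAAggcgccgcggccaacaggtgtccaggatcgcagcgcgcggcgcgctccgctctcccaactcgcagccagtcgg
Gjb6: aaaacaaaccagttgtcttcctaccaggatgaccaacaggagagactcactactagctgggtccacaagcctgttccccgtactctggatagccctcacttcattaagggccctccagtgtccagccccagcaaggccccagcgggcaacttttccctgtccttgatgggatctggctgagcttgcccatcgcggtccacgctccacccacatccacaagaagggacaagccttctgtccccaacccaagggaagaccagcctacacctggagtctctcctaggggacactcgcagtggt
Gjc3: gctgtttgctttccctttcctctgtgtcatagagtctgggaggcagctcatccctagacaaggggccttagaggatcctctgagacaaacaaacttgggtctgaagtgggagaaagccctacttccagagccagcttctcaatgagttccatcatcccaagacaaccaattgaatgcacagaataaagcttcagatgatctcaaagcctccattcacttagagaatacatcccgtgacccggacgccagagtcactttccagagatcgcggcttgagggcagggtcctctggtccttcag
The Gjb2 window was 70.0% G and C, above 90.4% of the 32851 promoters of the table, and held GGGCGG at 211 and, on the opposite strand, at 126 bases before the start and TTAAAA at 29 bases before it. The Gjb6 window was 57.3% G and C and the Gjc3 window 50.7%, and neither held any of the 5 words. Of all promoters 35.7% held GGGCGG, 19.2% TTAAAA, 13.6% TATAAA, 18.7% ACAAAG and 5.2% TGAGTCA. Each promoter was counted as holding a word on either strand or not, whatever its number of matches. The neighbouring genes with similar profiles thus had windows of different base composition.

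Values are TPM, which divide each transcript's reads by its length and the library's total, so that genes can be compared within a library. Both comparisons share the homozygous libraries, but the deposited tables give different values for them. For Gjb2 the second table was 1.39 to 1.42 times the first in the same 3 libraries, for Gja1 1.29 to 1.34 times and for Gjc3 1.05 to 1.14 times, against a median of 1.16 to 1.17 over shared symbols. Each comparison was therefore made within its own table, without a test of treated libraries against WT. A pseudocount of 1 TPM was added before taking log2, so fold changes of genes with low values are understated. All 6 connexins passed the filter of at least 1 TPM in at least 3 libraries in the second table, and all 3 did in the first.

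The libraries were not alike within groups. Treated libraries 1 and 2 differed by a median of 0.07 on the log2 scale, against 0.27 to 0.37 for pairs of homozygous libraries and 0.58 for treated libraries 1 and 3. They were closer than other replicates, so their mean entered as 1 sample and the treated group had n = 2. When 1 of them was left out, the other stood in its place. Those fits nearly repeated the main fit, with 728 and 745 genes passing against 754. A call kept in these 2 of the 6 fits with 1 library left out thus says little about its stability. Summed markers of forebrain neurons were at 1548 and 1526 TPM in treated libraries 1 and 2, 183 TPM in treated library 3 and 163 to 201 TPM in the homozygous libraries. Neurod6, a cortical neuron marker, was at 6.25 and 6.0 TPM in treated libraries 1 and 2 and listed at 0 in the other 4. Mitochondrially encoded genes made up 10.7% to 13.6% of TPM in homozygous and 2.17%, 2.22% and 6.16% in treated libraries 1 to 3. Cochlear markers were present in every library, with Coch at 3735 TPM or more and Otog at 16.9 TPM or more. Homozygous library 2 had the highest summed stria and bone markers and the lowest summed Schwann cell markers of its group. Mpzl2 itself was at 33.6, 43.9 and 49.0 TPM in WT and at 16.7, 23.2 and 12.5 TPM in homozygous libraries of the first table (limma adjusted p = 0.0139). In the second table it was at 17.4, 24.0 and 13.1 TPM in homozygous and 5.64, 5.62 and 16.3 TPM in treated libraries, a log2 difference of -0.80 (limma adjusted p = 0.335), and how reads from the humanized allele were assigned is unknown.

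Gjb2 was the most abundant of the 6 connexins in every homozygous library. The order by mean was Gjb2 with 849 ± 275 TPM, Gjb6 with 422 ± 129, Gjc3 with 114 ± 24.2, Gja1 with 74.96 ± 12.6, Gjb1 with 24.0 ± 8.28 and Gjc1 with 11.6 ± 3.01 TPM (SD, n = 3 each), and each of the 3 libraries had this order. Gjc3 and Gja1 were the only neighbours whose ranges over the homozygous libraries overlapped, and the lowest Gjb1 value, 15.4 TPM, lay just above the highest Gjc1 value, 14.6 TPM. Gjb2 ranked between 59 and 100 from the top among 17102 tested symbols in the homozygous libraries. In the first table the WT order was Gjb2 with 424 ± 74.7 TPM, Gjc3 with 149 ± 12.3 and Gja1 with 41.5 ± 15.5 TPM (SD, n = 3 each), without overlap between neighbours.

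**Figure D1:**
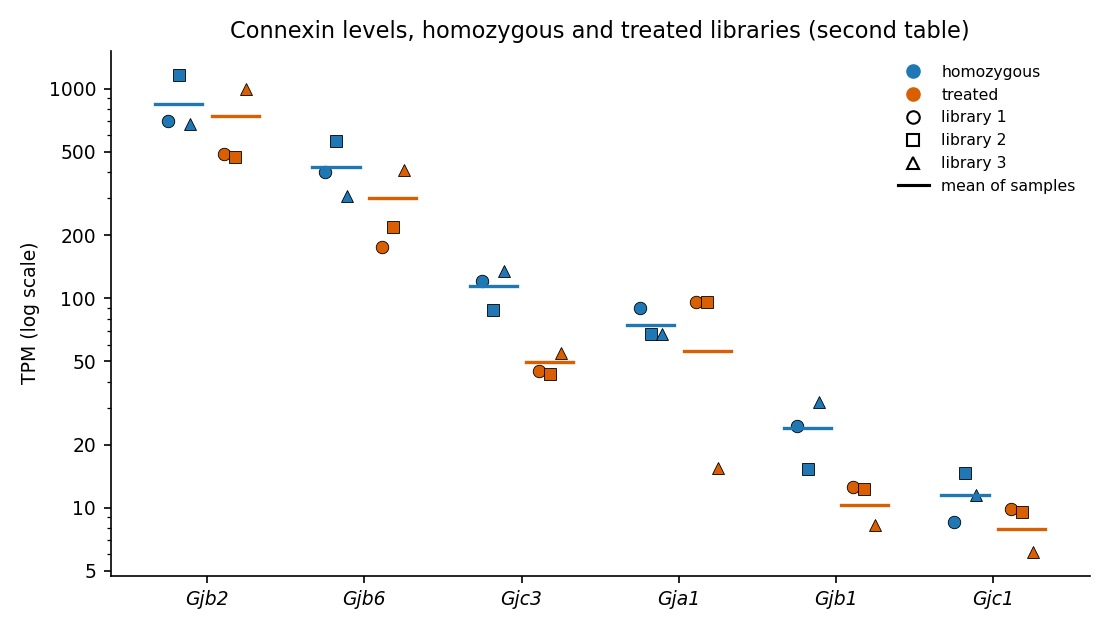
TPM on a log axis of the 6 connexins in the 3 homozygous (blue) and 3 treated (orange) libraries, one symbol shape per library number. Lines mark group means, with treated libraries 1 and 2 counted as 1 sample. Gjc3 and Gjb1 lie lower in every treated library than in every homozygous library, while treated library 3 lies apart from libraries 1 and 2 for Gjb2, Gjb6 and Gja1.

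Of the connexins of the sensory epithelium and spiral ligament, Gjb2 did not pass the test in either table. Gjb6, held by the second table alone, did not pass there. In WT, Gjb2 was at 347, 430 and 496 TPM, and in homozygous libraries at 503, 837 and 476 TPM. The groups overlapped, because homozygous library 3 lay below WT library 3, and homozygous library 2 stood highest. On the log2 scale the fold change was 0.48, with a standard error of 0.24 and a 95% interval of -0.06 to 1.02 (limma adjusted p = 0.0854). Without homozygous library 2 it was 0.22 (limma adjusted p = 0.214). In the second table, Gjb2 was at 704, 1167 and 677 TPM in homozygous libraries and at 489, 473 and 993 TPM in treated libraries 1, 2 and 3. Treated libraries 1 and 2 lay below every homozygous library and treated library 3 within their range. The log2 fold change of treated against homozygous was -0.25, with an interval of -1.17 to 0.67 (limma adjusted p = 0.713). With treated libraries 1 and 2 alone it was -0.77, and with treated library 3 alone 0.27, so the sign differed between the treated samples.

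Gjb6 showed the same division among the treated libraries. It was at 399, 561 and 307 TPM in homozygous libraries and at 175, 220 and 408 TPM in treated libraries 1, 2 and 3. Libraries 1 and 2 again lay below every homozygous library, while library 3 lay inside the homozygous range. Treated against homozygous, the log2 fold change was -0.53, with an interval of -1.43 to 0.37 (limma adjusted p = 0.412). It was -1.05 with treated libraries 1 and 2 alone and -0.01 with library 3 alone. Gjb6 also differed by 1.25 times between treated libraries 2 and 1, where 4.34% of the 2098 genes at 100 TPM or more in both were as far apart, whereas Gja1 had a ratio of 1.00.

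The ratio of Gjb6 to Gjb2, which does not depend on library scaling, was 0.567, 0.481 and 0.453 in homozygous libraries and 0.358, 0.464 and 0.411 in treated libraries. The treated range overlapped the homozygous range through library 2. With treated libraries 1 and 2 as 1 sample the log2 ratio was lower by a mean difference of -0.28, and the exact permutation test gave p = 0.2 (two-sided), the smallest value that 3 against 2 samples allow. Summed over the 6 connexins, TPM was 1346, 1913 and 1230 in homozygous and 828, 855 and 1486 in treated libraries, a mean log2 difference of -0.39 (exact permutation p = 0.6, two-sided). Gjb2 and Gjb6 together made up 80.0% to 90.3% of this sum in homozygous libraries, 80.2% and 81.1% in treated libraries 1 and 2, and 94.3% in treated library 3. Gjb2 and Gjb6 therefore held most of the summed TPM of these 6 genes in each of the 6 libraries.

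**Figure D2:**
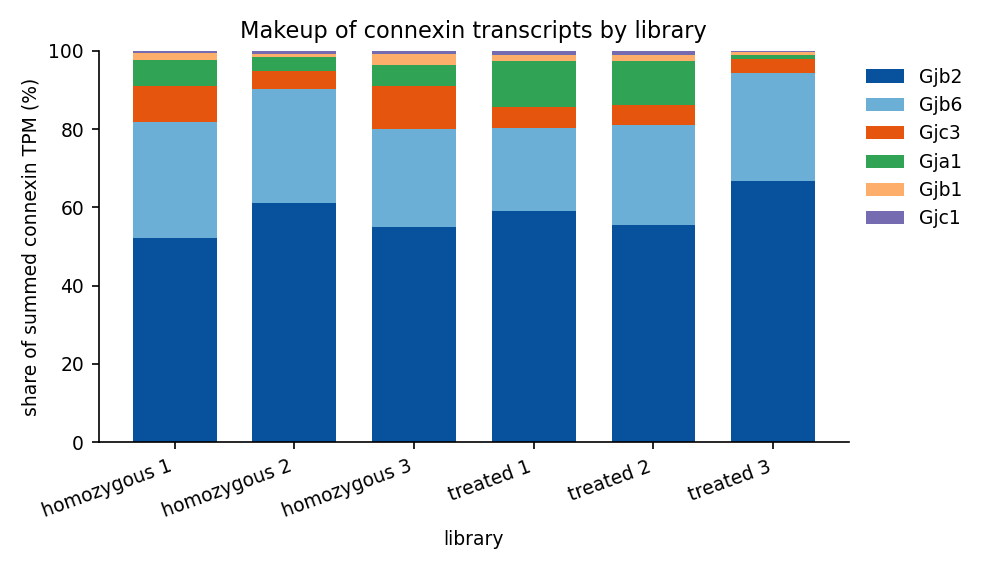
Share in percent of the summed TPM of the 6 connexins taken by each gene, as stacked bars for the 6 libraries of the second table. Gjb2 and Gjb6 fill 80.0% or more of each bar, and Gja1 takes 11.6% and 11.3% in treated libraries 1 and 2 and 1.04% in treated library 3.

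Genes of potassium recycling, the route that these channels serve, were also measured. Of the 16 listed genes of potassium recycling, all tested in the second table, 1 rose and 0 fell. Of all 17102 tested symbols 3.44% passed as higher and 0.965% as lower. That gene was Slc12a7, a potassium-chloride cotransporter, whose mean was 269 TPM (SD 17.0) in homozygous and 494 TPM (SD 1.88) in treated samples (limma adjusted p = 0.0409) and kept its call in 3 of the 6 fits with 1 library left out. The list had a median log2 fold change of 0.56, against 0.20 over all tested genes. That median was 0.16 with treated libraries 1 and 2 alone and 0.80 with library 3 alone. For all tested genes the medians were 0.29 and 0.09. Slc12a2, the sodium-potassium-chloride cotransporter of fibrocytes and marginal cells, was at 742, 1156 and 613 TPM in homozygous and at 392, 369 and 844 TPM in treated libraries (limma adjusted p = 0.468), so it was high in the same 2 libraries as Gjb2 and Gjb6.

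Markers of the cells that carry these connexins are given as measured beside them. Summed fibrocyte markers (10 of 10 present) were at 18310 to 24388 TPM in homozygous and at 10953, 10938 and 16335 TPM in treated libraries. Of these, 1 of 10 tested fell, Otos, the gene of otospiralin, with a mean of 2995 TPM (SD 558) in homozygous and 944 TPM (SD 213) in treated samples (limma adjusted p = 0.0346), a call kept in 3 of 6 fits with 1 library left out. Fibrocyte markers with a log2 fold change below 0 numbered 7. The other 3 lay above 0 without passing, Emilin2 at 1.20, Tbx18 at 0.64 and Pou3f4 at 0.59. Summed supporting cell markers (11 of 11 present) were at 804 to 903 TPM in homozygous and 924 to 1070 TPM in treated libraries. Epyc held most of this sum in the homozygous libraries, at 491, 507 and 538 TPM. It was at 278, 275 and 621 TPM in treated libraries 1, 2 and 3, so the sum hides how the other markers differed. Of 11 tested, 2 rose and 0 fell. Lfng, a modifier of Notch, rose by 1.68 and Otog, the gene of otogelin, by 2.05 on the log2 scale (limma adjusted p = 0.0199 and 0.0223). These calls were kept in 3 and 4 of 6 fits. The log2 fold change was above 0 for 7 of the 11 and below 0 for 4. Among those below was Prox1, at -1.10 and lower in every treated library (limma adjusted p = 0.106). Over all tested genes 3.44% passed as higher and 0.965% as lower. The median log2 fold change of the supporting cell list was 1.16 with treated libraries 1 and 2 alone and 0.28 with library 3 alone. For all tested genes these medians were 0.29 and 0.09. Hes5 of this list was listed at 0 in homozygous library 1 and treated library 3. In the first table summed fibrocyte markers (6 present) were at 8754 to 10189.9 TPM in WT and 10806 to 14235 TPM in homozygous libraries. Of these, 2 rose and 2 fell, where 17.9% of all tested symbols passed as higher and 33.5% as lower. The log2 fold changes were 1.72 for Slc4a11, 0.71 for Apod, -1.94 for Emilin2 and -0.88 for Otor. These calls were kept in 4, 1, 6 and 6 of 6 fits. Coch, which did not pass, and Apod had means of 4270 and 3933 TPM in WT and 5161 and 6398 TPM in homozygous libraries. The sum therefore hides the falls of Emilin2 and Otor. The part of fibrocyte and supporting cell markers in the Gjb2 and Gjb6 values was not tested. In bulk tissue, fewer cells of a type and less RNA per cell cannot be told apart.

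Gjc3, the myelinating glia connexin Cx29, fell in both comparisons. In WT it was at 143, 164 and 142 TPM and in homozygous libraries at 110, 83.7 and 118 TPM, without overlap. Its log2 fold change was -0.53, with a standard error of 0.16 and an interval of -0.89 to -0.17 (limma adjusted p = 0.0381). It was the 1 of 3 connexins that passed in this table, where 51.3% of the 1348 tested symbols passed, 33.5% as lower and 17.9% as higher. It was also the 1 of 3 without overlap between groups, which held for 77.1% of symbols, 45.6% as lower and 31.5% as higher, and the 1 of 3 with an unadjusted p under 0.05, which held for 75.7%. The rows of this table appear to have been selected on these samples and the median of all its genes was -0.36, so Gjc3 lay -0.17 from that median and the call is not independent evidence. The call was lost without WT library 1, 2 or 3 or homozygous library 1 (limma adjusted p = 0.0669 to 0.0912) and under median-of-ratios scaling (limma adjusted p = 0.0605).

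In the second table Gjc3 was at 121, 87.7 and 135 TPM in homozygous libraries and at 45.2, 43.6 and 54.9 TPM in treated libraries. Every treated library lay below every homozygous library, library 3 included. The log2 fold change was -1.17 with a standard error of 0.24 and an interval of -1.75 to -0.60 (limma adjusted p = 0.0486). Gjc3 was the 1 of 6 connexins that passed, against 4.41% of 17102 tested symbols in either direction, 0.965% as lower and 3.44% as higher. The call was lost without homozygous library 1, 2 or 3 (limma adjusted p = 0.213, 0.0609 and 0.186), while the log2 fold change stayed between -1.35 and -1.04 in the 6 fits with 1 library left out. It was -1.32 with treated libraries 1 and 2 alone and -1.02 with library 3 alone (limma adjusted p = 0.108). As the homozygous libraries stand in both comparisons, both differences of Gjc3 rest in part on the same samples.

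Gjb1, the connexin Cx32 of Schwann cells, was present in the second table. It was at 24.6, 15.4 and 31.9 TPM in homozygous libraries and at 12.6, 12.4 and 8.24 TPM in treated libraries. The groups did not overlap, which held for 2 of the 6 connexins as lower, Gjb1 and Gjc3, against 15.8% of all tested symbols as lower, 29.2% as higher and 45% in either direction. The log2 fold change was -1.10 with a standard error of 0.38 and an interval of -2.02 to -0.18, and it did not pass (limma adjusted p = 0.135). It was -0.83 with treated libraries 1 and 2 alone and -1.38 with library 3 alone.

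Myelin genes were measured beside Gjc3 and Gjb1. Of 12 listed Schwann cell genes 8 were tested in the first table, and 7 fell and 0 rose, among them Prx, the gene of periaxin, with a mean of 223 TPM (SD 16.1) in WT and 112 TPM (SD 22.6) in the mutant (limma adjusted p = 0.00847) and Pmp22, a compact myelin protein gene, with a mean of 2041 TPM (SD 116) and 1063 TPM (SD 343) (limma adjusted p = 0.0281). Prx kept its call in 6 and Pmp22 in 2 of the 6 fits with 1 library left out. The median log2 fold change of the 8 was -0.80, against -0.36 over all tested symbols of that table, of which 33.5% passed as lower. Their summed level was 7392 to 7916 TPM in WT and 2792 to 5267 TPM in homozygous libraries. In the second table all 12 were tested and 0 passed limma, while 4 had an unadjusted p under 0.05, against 26.7% of all tested genes. Mbp, the myelin basic protein gene, was not among these 4, at 2166 ± 948 and 1220 ± 145 TPM (SD, n = 3 and 2). The median log2 fold change of the 12 was -0.58, against 0.20 over all tested genes. Their summed level was 10019, 5397 and 11782 TPM in homozygous and 5368, 5203 and 4488 TPM in treated libraries, so homozygous library 2, lowest of its group in Gjc3 and Gjb1, was lowest here too.

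Oligodendrocyte markers were also measured, since Gjc3 and Gjb1 are made in central myelin as well. Of 9 tested, 2 fell in treated libraries, Mog, a surface protein gene of oligodendrocytes, with a mean of 27.5 TPM (SD 11.1) in homozygous and 1.64 TPM (SD 2.31) in treated samples, and Klk6, a secreted protease gene, with a mean of 26.9 TPM (SD 14.9) and listed at 0 in all 3 treated libraries (limma adjusted p = 0.0415 and 0.0186). The summed list (10 of 10 present) was at 734, 305 and 923 TPM in homozygous and 287, 278 and 226 TPM in treated libraries. Mog, Olig1 and Olig2 were listed at 0 in treated library 3, and Opalin in homozygous library 1 and all treated libraries. In the first table Klk6 was the 1 oligodendrocyte marker present, with a mean of 5.57 TPM (SD 6.92) in WT and 19.0 TPM (SD 10.9) in homozygous libraries, and it did not pass (limma adjusted p = 0.0524). In treated against homozygous, leaving out 1 library, Mog kept its call in 3 and Klk6 in 4 of 6 fits. The share of all tested genes that passed as lower in that comparison was 0.965%. The part of either myelin list in the Gjc3 and Gjb1 values was not tested.

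**Figure D3:**
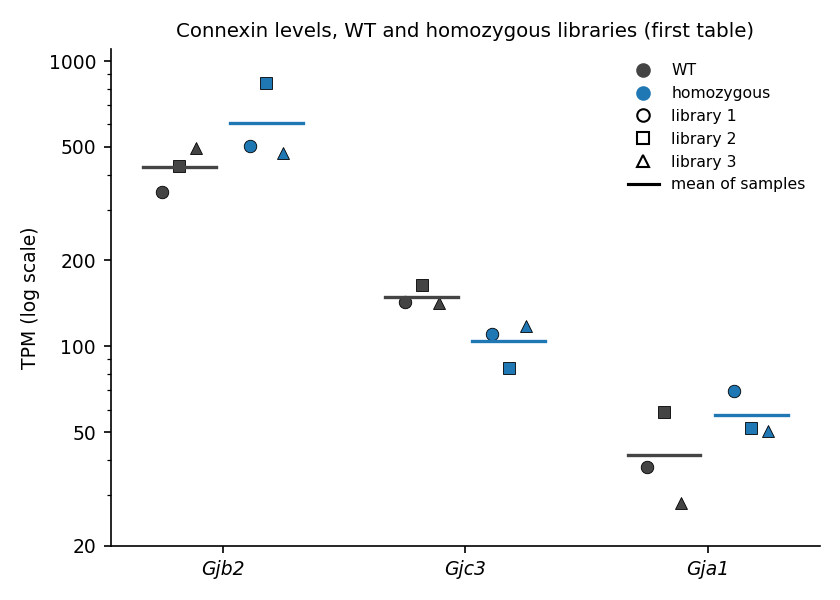
TPM on a log axis of the 3 connexins in the first deposited table, for 3 WT (grey) and 3 homozygous (blue) libraries, with lines at the group means. The groups do not overlap for Gjc3, and they overlap for Gjb2 and Gja1.

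Gja1, the connexin Cx43, had the widest spread among treated libraries. In WT it was at 37.8, 58.6 and 28.2 TPM and in homozygous libraries of the first table at 69.5, 51.9 and 50.6 TPM. WT library 2 lay above 2 of the homozygous libraries, so the groups overlapped. Its log2 fold change was 0.50, with an interval of -0.09 to 1.09 (limma adjusted p = 0.0929). In the second table it was at 89.6, 67.5 and 67.8 TPM in homozygous libraries, at 96.2 and 96.3 TPM in treated libraries 1 and 2, and at 15.5 TPM in treated library 3. Treated libraries 1 and 2 lay above and library 3 below every homozygous library. The log2 fold change was -0.91 with a standard error of 0.67 and an interval of -2.52 to 0.71 (limma adjusted p = 0.428). With libraries 1 and 2 alone it was 0.37 (limma adjusted p = 0.298), and with library 3 alone -2.19 (limma adjusted p = 0.0394), where the lone library is assumed to vary like the homozygous ones.

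Astrocyte markers also differed between the treated libraries. Their summed level (10 of 10 present, none at 0 in any library) was 330 to 506 TPM in homozygous libraries, 1700 and 1672 TPM in treated libraries 1 and 2 and 350 TPM in treated library 3. Gfap, the astrocyte filament gene, did not follow this sum, with 110.3, 34.1 and 111.5 TPM in homozygous libraries, 63.2 and 62.0 TPM in treated libraries 1 and 2 and 8.20 TPM in library 3. Of the 10 genes 0 passed limma in the second table and 3 had an unadjusted p under 0.05, against 26.7% of all tested genes. Slc1a2, the glial glutamate transporter gene and 1 of these 3, was at 132 ± 8.21 and 703 ± 749 TPM (SD, n = 3 and 2). Aldoc, an astrocyte aldolase gene, was not among them, at 96.1 ± 29.8 and 89.0 ± 64.1 TPM (SD, n = 3 and 2). The median log2 fold change of the list was 1.47 with treated libraries 1 and 2 alone and -1.09 with library 3 alone. In the first table Slc1a2 was the 1 astrocyte marker present, and it rose by 0.62 on the log2 scale (limma adjusted p = 0.0466), a call kept in 1 of 6 fits with 1 library left out. Of all symbols tested there 17.9% passed as higher. Bone markers, another source of Gja1, summed to 3306 to 6414 TPM in homozygous and 2047, 2016 and 4492 TPM in treated libraries (11 of 11 present, Mepe listed at 0 in treated libraries 1 and 2), and 2 of 11 tested fell, Mepe and Ibsp (limma adjusted p = 0.0225 and 0.0332), calls kept in 3 and 4 of 6 fits. The share of all tested genes that passed as lower was 0.965%. All 11 bone markers had a log2 fold change below 0. Their median was -1.86, or -1.77 with treated library 3 alone, although the sum of that library lay inside the homozygous range. The first table held 5 bone markers, of which 3 fell, Dmp1, Col1a2 and Ibsp, and 1 rose, Spp1, with Dmp1 and Col1a2 keeping their calls in 6 of 6 fits and Ibsp and Spp1 in 2. The part of these cells in the Gja1 values was not tested.

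Gjc1, the connexin Cx45, was the least abundant of the 6. It was at 8.58, 14.6 and 11.6 TPM in homozygous and at 9.87, 9.54 and 6.17 TPM in treated libraries. Treated libraries 1 and 2 lay within the homozygous range and library 3 below it. Its log2 fold change was -0.49, with an interval of -1.40 to 0.41 (limma adjusted p = 0.441). Markers of pericytes and smooth muscle (9 of 9 present) summed to 253 to 310 TPM in homozygous and 201 to 222 TPM in treated libraries, and 1 of 9 tested fell, Acta2, the smooth muscle actin gene, with a mean of 29.4 TPM (SD 7.13) in homozygous and 8.31 TPM (SD 1.25) in treated samples (limma adjusted p = 0.0372), a call kept in 3 of 6 fits with 1 library left out. Endothelial markers (8 of 8 present) summed to 293 to 301 and 321 to 362 TPM, and 0 of 8 passed limma, against 2 at an unadjusted p under 0.05, with Emcn, an endothelial sialomucin gene, at 68.9 ± 14.2 and 104 ± 6.54 TPM and Flt1, a receptor gene for vascular endothelial growth factor, at 55.8 ± 1.25 and 54.6 ± 12.8 TPM (SD, n = 3 and 2).

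**Figure D4:**
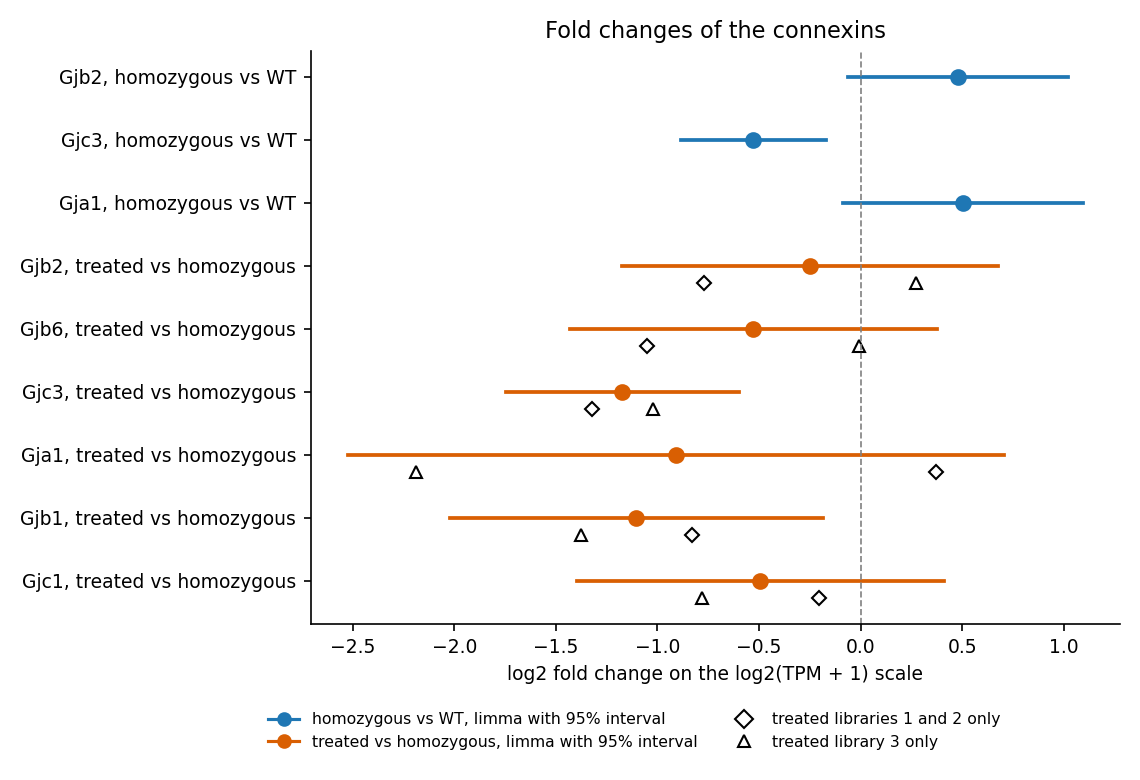
log2 fold changes on the log2(TPM + 1) scale with 95% limma intervals for homozygous against WT (blue) and treated against homozygous (orange). Open symbols give the treated fold change with libraries 1 and 2 only (diamonds) and library 3 only (triangles), which lie on opposite sides of 0 for Gja1 (0.37 and -2.19) and Gjb2 (-0.77 and 0.27).

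All 6 connexins had a log2 fold change below 0 in treated against homozygous libraries, with a median of -0.72 against 0.20 over all tested genes. Of the 6, 2 had an unadjusted p under 0.05, against 26.7% of all tested genes. Median-of-ratios scaling moved the median of all genes by -0.16 in this comparison and by 0.14 in homozygous against WT.

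Other connexins and pannexins were measured as well. Of 17 listed, 14 were in the second table, 6 were tested and 0 passed limma or had an unadjusted p under 0.05, with Panx2 at 33.8 ± 7.49 and 30.5 ± 3.14 TPM and Panx1 at 9.93 ± 3.19 and 9.13 ± 0.058 TPM in homozygous and treated libraries (SD, n = 3 and 2). Both encode pannexins, channel proteins related in shape to connexins. The first table held 2 of the 17, and both fell. Gjd2, the neuronal connexin Cx36 of electrical synapses, went from 17.0, 17.4 and 15.9 TPM in WT to 6.89, 5.10 and 11.2 TPM in homozygous libraries, lower by a log2 difference of -1.09 (limma adjusted p = 0.0252). Gja4, the endothelial connexin Cx37, went from 5.05, 3.33 and 3.48 to 1.44, 1.82 and 1.8 TPM, lower by a log2 difference of -0.87 (limma adjusted p = 0.0311). For each gene WT and homozygous values did not overlap, in a table where 33.5% of all tested symbols passed as lower and 45.6% were lower without overlap. Each kept its call in 2 of the 6 fits with 1 library left out. Of 12 genes of connexin binding and trafficking, all tested in the second table, 0 passed limma, against 4 at an unadjusted p under 0.05, with Nedd4, a ubiquitin ligase gene, at 584 ± 16.4 and 594 ± 80.9 TPM and Tjp1, the scaffold ZO-1 that binds Cx43, at 210 ± 33.7 and 154 ± 57.0 TPM (SD, n = 3 and 2). The first table held 2 of these, and Prkca, a kinase gene, rose by 0.45 and Cav1, the caveolin gene, fell by 0.49 on the log2 scale (limma adjusted p = 0.0398 and 0.0431), calls kept in 2 and 1 of 6 fits. Of all symbols tested there 17.9% passed as higher and 33.5% as lower.

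**Figure D5:**
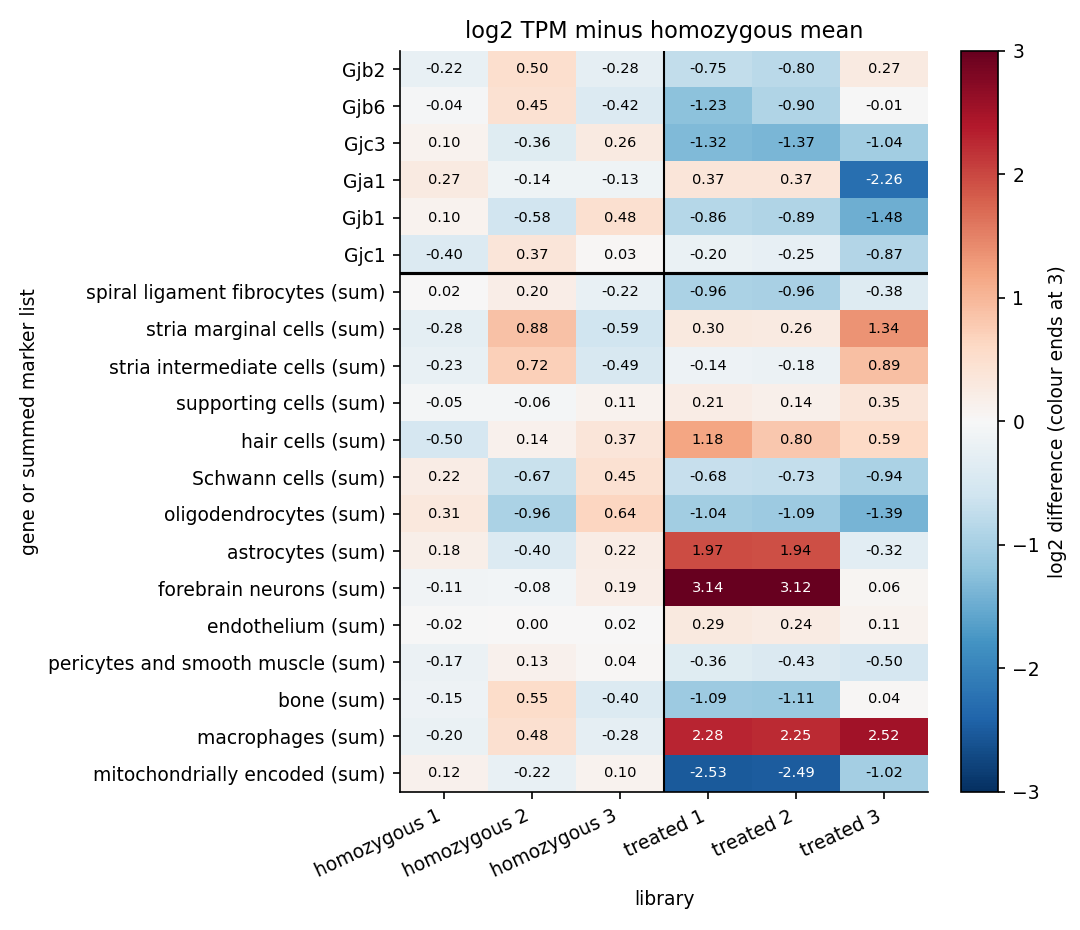
log2 TPM minus the mean of the 3 homozygous libraries, for the 6 connexins (upper rows) and for the summed TPM of 14 marker lists (lower rows), in the 6 libraries of the second table. Red is above and blue below the homozygous mean. Treated libraries 1 and 2 are at 3.14 and 3.12 for forebrain neurons, where treated library 3 is at 0.06, and Gja1 is at -2.26 in treated library 3.

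The genes most like each connexin over the 5 samples of the second table were found by the root mean square difference of log2(TPM + 1), each gene centred on its own mean, among 10449 symbols with a mean of at least 10 TPM. Nearest to Gjb6 were Slc12a2, at 0.06, Pla2g7, at 0.09, and Arl15, at 0.10. Nearest to Gjb2 were Rnf152 and Ahcyl2, both at 0.06, and Zcchc9, at 0.07, and Gjb6 itself was at 0.17 from Gjb2. Nearest to Gjc3 were Adgrg2, Dmac2 and Vbp1, at 0.05 to 0.07, and Gjb1 was at 0.30 from Gjc3. Nearest to Gjb1 were Prox1, at 0.02, Kcnh5, at 0.07, and Cntnap5a, at 0.08. Nearest to Gja1 were Itgb3bp, Calcrl and Trmt6, at 0.18 to 0.23, and nearest to Gjc1 were Mdm2, Abcc9 and Hbegf, at 0.05 to 0.07. Gja1 was farther from Gjb2 (1.24) and Gjb6 (1.20) than from Gjb1 (0.72), Gjc1 (0.75) and Gjc3 (0.94). These distances rest on 5 samples from the same tables and are a description.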

How the data were processed

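Values were TPM as the authors deposited them, in 2 tables. Per the submitters' processing notes, kallisto 0.51.0 and DESeq (no version) were used with build GRCm39. The selection of rows in the first table is not described. TPM keeps no depth, so depth is unknown and no counting interval is given. Groups came from the sample titles, since the genotype field counts upward between samples.

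Repeated symbols were summed. limma 3.58.1 in R 4.3.3 was fitted per table to log2(TPM + 1) with a mean-variance trend over symbols with at least 1 TPM in at least 3 libraries. All tests were two-sided. The p-values were adjusted by the Benjamini-Hochberg method over all symbols tested, with a threshold of 0.05. Single values were tested with exact permutation tests (scipy 1.17.1). Scripts were tested on simulated data. Members and 17 further gene lists were chosen with earlier results of these data known. Named were all members, and per list up to 4 passing genes with the smallest p or, with none, the 2 of highest mean, and the 3 most alike genes. Further genes were named after their values were seen. For lists with several passing genes, some are given as counts alone, and some listed genes are not reported here. Alternatives were another pseudocount (0.1), no filter, median-of-ratios scaling, a replicate block, libraries left out, and treated libraries 1 and 2 as separate samples.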

Additional observations from a re-analysis of the deposited data

How the results depend on the processing

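Connexins passing in homozygous against WT numbered 1, and 0 under median-of-ratios scaling. With 1 library left out the number ranged from 0 to 1. In treated against homozygous it was 1, and 0 with a pseudocount of 0.1 (Gjc3 adjusted p = 0.0547) or without a filter on low values (0.104, with more genes tested). With 1 library left out it again ranged from 0 to 1, and with treated library 3 alone the 1 passing connexin was Gja1 and not Gjc3. Of all genes, 692 passed in homozygous against WT, 241 higher and 451 lower, and 681 under median-of-ratios scaling, 465 higher and 216 lower, with 103 to 611 when 1 library was left out. In treated against homozygous 754 passed, 589 higher and 165 lower. Scaling gave 617, 398 higher and 219 lower, no filter 134, the 3 treated libraries as samples 3563, treated library 3 alone 222, an alternative chosen after seeing the data, and 63 to 2984 when 1 library was left out.

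The sign of Gja1 in treated against homozygous changed without treated library 3 (0.37, range -0.98 to 0.37 with 1 library left out), and that of Gjb2 without homozygous library 2 (0.0018, range -0.77 to 0.0018) or with treated library 3 alone (0.27). The log2 difference of summed connexin TPM was 0.017 with treated library 3 alone, and the Gjb6 to Gjb2 difference kept its sign in all 9 alternatives, of which scaling cannot move a ratio within a library. Gjb1, Gjb6 and Gjc1 kept their sign and stayed above the threshold in all 12 alternatives each. The cause of these changes was not tested.

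Replicate numbers were shared between groups, but same-numbered libraries did not deviate together (r = 0.05, -0.14 and -0.07 in the first table and 0.03, -0.15 and -0.12 in the second). With the number as a replicate block, 0 connexins and 343 genes passed in homozygous against WT, and 1 connexin and 1485 genes in treated against homozygous, each library entering singly. Not every library correlated best with its own number.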

Other observations

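Among connexins outside the 6, Gjd3 was listed at 0 in the 3 homozygous libraries and in treated library 3, and was at 9.12 and 8.93 TPM in treated libraries 1 and 2. Panx3, a pannexin of bone and cartilage, was at 6.24, 12.8 and 1.46 TPM in homozygous and at 1.66, 1.45 and 1.03 TPM in treated libraries (limma adjusted p = 0.252). These 2 genes were chosen after their values were seen.

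Markers of other cell types were compared between treated and homozygous libraries as well. Of 10 macrophage markers 7 rose and 0 fell, among them C1qc, a complement gene of macrophages, with a mean of 9.27 TPM (SD 2.38) in homozygous and 81.5 TPM (SD 17.3) in treated samples (limma adjusted p = 0.00825, a call kept in 5 of 6 fits with 1 library left out), and the summed list was at 127 to 214 TPM in homozygous and 730 to 883 TPM in treated libraries. The median log2 fold change of the macrophage list was 2.30 with treated libraries 1 and 2 alone and 2.06 with library 3 alone. For all tested genes these medians were 0.29 and 0.09. Of 9 hair cell genes 0 passed limma, against 5 at an unadjusted p under 0.05, with Otof, the gene of otoferlin, at 24.2 ± 11.2 and 72.4 ± 28.1 TPM (SD, n = 3 and 2). Of 13 mitochondrially encoded genes 3 fell, mt-Nd4, mt-Nd6 and mt-Nd2, each a call kept in 3 of 6 fits. The median log2 fold change of the 13 was -3.30 with treated libraries 1 and 2 alone and -1.47 with library 3 alone. Of 7 tested genes of stria marginal cells and 6 of intermediate cells 0 passed limma or had an unadjusted p under 0.05. Beside these counts, 3.44% of all tested genes passed as higher and 0.965% as lower, and 26.7% had an unadjusted p under 0.05.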
